A study of Homo sapiens with 6 samples.

Results

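The 8 genes described here, CHKA, CHKB, ETNK1, ETNK2, PCYT1A, PCYT2, CHPT1 and CEPT1, encode enzymes of the Kennedy pathway, by which human cells build phosphatidylcholine and phosphatidylethanolamine. They were taken by gene symbol from a table of 63140 genes, and all 8 were among the 16754 genes with enough counts to be tested. PCYT1B and SELENOI, which carry out steps of the same pathway, are given beside them. Expression was measured by RNA sequencing in HEK293 cells, an established line grown from human embryonic kidney and kept in DMEM with 10% fetal bovine serum and antibiotics. The treated group received 100 nM GSK-A1 for 24 h at confluence, and the control group is labelled DMSO, the solvent. GSK-A1 inhibits PI4KA, the kinase that makes phosphatidylinositol 4-phosphate at the plasma membrane. Each group held 3 libraries, which the labels call biological replicates without saying what separated them, so the p-values measure the spread between these libraries, which may be technical. All 6 libraries came from the same line, carried the same lane label and represent 1 dose and 1 time.

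The Kennedy pathway has parallel branches for choline and ethanolamine. In each branch a kinase phosphorylates the free base, a cytidylyl transferase joins the phosphorylated base to CTP, and a transferase in the endoplasmic reticulum or Golgi moves the activated head group onto diacylglycerol. Phosphatidylcholine and phosphatidylethanolamine are the most abundant phospholipids of mammalian membranes, and the cytidylyl transferase step is usually taken as the slow step of each branch. CTP is also used to make phosphatidylinositol, the lipid that PI4KA phosphorylates, which cells build from phosphatidic acid through CDP-diacylglycerol.

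Total counts per library ranged from 33040178 to 47777233 and did not separate the groups (exact two-sided permutation test, p = 0.9). Genes of the mitochondrial genome held 5.12% to 5.41% of the counts in the DMSO libraries and 4.04% to 5.68% in the GSK-A1 libraries (exact two-sided permutation test, p = 0.8). Of 7 marker genes of HEK293 cells, 6 stood at 1 CPM (counts scaled to a library total of 1000000) or more in every library, and their summed level was 2037 to 2110 CPM with DMSO and 2184 to 2375 CPM with GSK-A1. NEFM was the exception, at 0.0604 to 0.381 CPM. Of 8 markers of other cell types only COL1A1 reached 1 CPM in every library. The summed level of those 8 was 6.95 to 7.79 CPM with DMSO and 5.07 to 7.10 CPM with GSK-A1, and PTPRC, CD3E, PECAM1 and CDH5 were at 0 in some libraries. GSK-A1 replicate 2 stood apart: its log2 CPM correlated across genes with those of GSK-A1 replicates 1 and 3 at Pearson's r of 0.995 and 0.994, against 0.997 for replicates 1 and 3 and for every pair of DMSO libraries. Genes are not independent replicates, so these values are descriptions.

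After 24 h of GSK-A1 the mRNAs of the pathway moved in both directions. PCYT2, the cytidylyl transferase of the ethanolamine branch, fell by 23.0%, while the kinases ETNK1 and CHKA and the terminal transferase CEPT1 rose by 20.7%, 17.9% and 19.2%. PCYT1A, the cytidylyl transferase of the choline branch, stood at 39.0 ± 1.2 CPM with DMSO and 40.2 ± 0.9 CPM with GSK-A1 (SD, n = 3 in each group). In all, 3 of the 8 genes were called higher and 1 was called lower at an adjusted p under 0.05 by edgeR's quasi-likelihood test. The same test called 22.9% of all genes tested, 12.0% higher and 10.9% lower, so that 52.3% of the calls were higher (33.3% with upper-quartile factors and 63.9% with the GC trend removed). The same 4 of the 8 genes had groups that did not overlap, as did 40.5% of all genes tested. The median log2 fold change was 0.08 over the 8 genes and -0.01 over all genes tested, and called genes of the whole table changed by a median of 0.24 on the log2 scale, whichever the direction. Leaving out DMSO replicate 1, 2 or 3 lowered the number of genes called in the whole table from 3835 to 2163, 2213 or 2206. Errors are SD over 3 libraries for CPM and for ratios, and standard errors of the edgeR fit for log2 fold changes (GSK-A1 over DMSO). In bulk RNA, fewer cells that express a gene and less of its RNA per cell cannot be told apart.

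**Figure D1:**
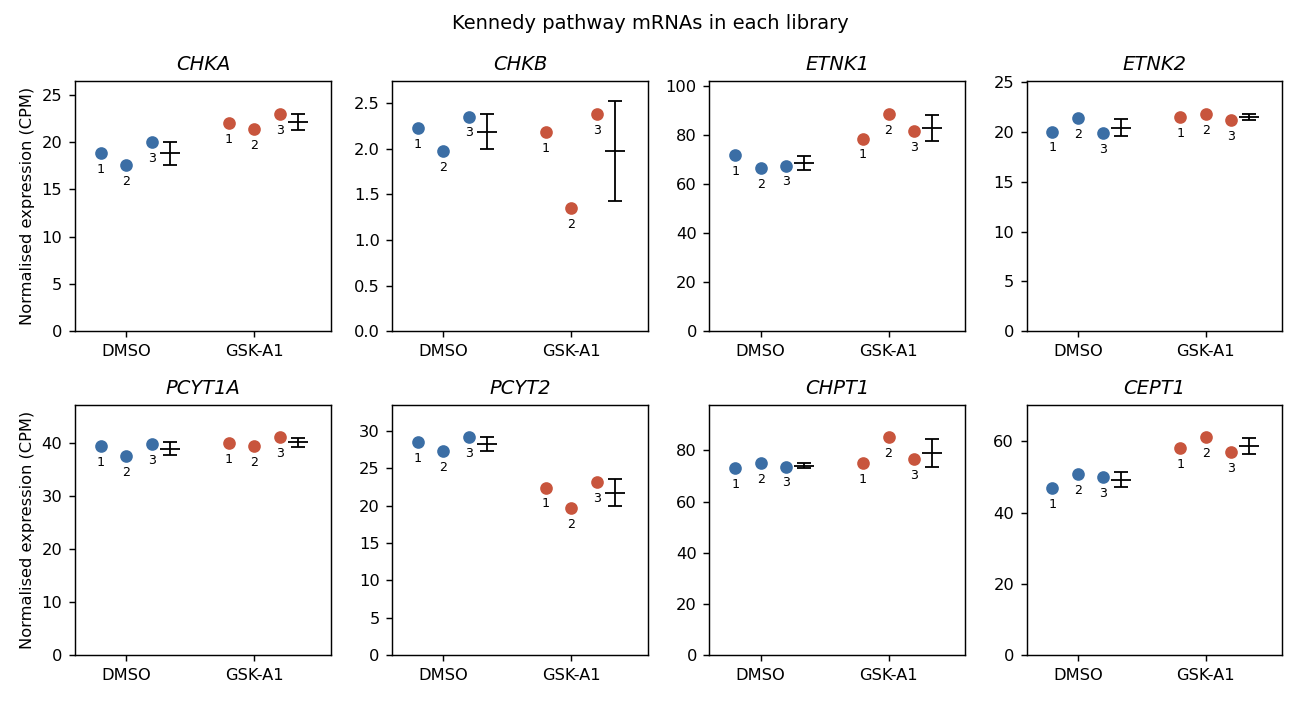
Normalised expression (CPM, linear axis from 0) of the 8 Kennedy pathway mRNAs in each of 3 DMSO (blue) and 3 GSK-A1 (red) libraries, numbered by replicate, with the mean and SD of each group in black. The groups are separate for CHKA, ETNK1, PCYT2 and CEPT1, and PCYT2 is the only gene of these 4 that is lower with GSK-A1.

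The kinases act on the free bases. CHKA (ENSG00000110721) encodes choline kinase alpha, which phosphorylates choline and, less well, ethanolamine. The gene lies on the minus strand at chr11:68052859-68121444 of GRCh38. Its mRNA was at 18.8, 17.6 and 20.0 CPM in DMSO libraries 1, 2 and 3 and at 22.0, 21.4 and 23.0 CPM in GSK-A1 libraries 1, 2 and 3. Every GSK-A1 library was above every DMSO library, and the lowest GSK-A1 value exceeded the highest DMSO value by a narrow margin. Its log2 fold change of 0.24 ± 0.06 (edgeR adjusted p = 0.00986) was higher than that of 90.8% of all genes tested. Of 15 alternative settings, the call was lost only without DMSO replicate 2, the lowest of the 6 values. Without that library the log2 fold change was 0.19 and the edgeR adjusted p was 0.0772, where 13.2% of the genes fitted were called. Without DMSO replicate 1 the log2 fold change was 0.24 and the edgeR adjusted p was 0.0462. The antisense gene AP002807.1 covers 16.3% of the exonic length of CHKA, and its share of the counts was not tested.

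CHKB (ENSG00000100288) encodes choline kinase beta, the isoform whose loss causes a muscular dystrophy. It lies on the minus strand at chr22:50578949-50601455. It was scarce: the 6 libraries held between 46 and 107 of its counts. Its level was 2.23, 1.98 and 2.35 CPM with DMSO and 2.19, 1.35 and 2.39 CPM with GSK-A1, so the groups overlapped and GSK-A1 replicate 2 alone was low. A log2 fold change of -0.12 ± 0.17 was fitted (edgeR adjusted p = 0.657), and leaving out GSK-A1 replicate 2 turned it to 0.071 (edgeR adjusted p = 0.772). Of the exonic length of CHKB, 72.5% is shared on the same strand with the read-through gene CHKB-CPT1B, and 96.71% of its 50-base stretches also occur there. How the counting divided reads between the pair is not given in the sources used here, so the level of CHKB is uncertain. CHKB-CPT1B itself had a fitted log2 change of -0.04 ± 0.14 (edgeR adjusted p = 0.854).

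Ethanolamine has kinases of its own. ETNK1 (ENSG00000139163), which lies on the plus strand at chr12:22625075-22690665, encodes ethanolamine kinase 1. Its mRNA was at 71.9, 66.6 and 67.6 CPM with DMSO and at 78.7, 88.8 and 81.6 CPM with GSK-A1. The groups did not overlap, and GSK-A1 replicate 2 was the highest library. ETNK1 had a fitted log2 change of 0.27 ± 0.05 (edgeR adjusted p = 0.000968), higher than that of 92.9% of all genes tested. It lay between 0.20 and 0.32 under 15 alternative settings, all of which kept the call.

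ETNK2 (ENSG00000143845), on the minus strand at chr1:204131062-204152003, encodes the second ethanolamine kinase, known mainly from liver and the reproductive tissues. It was at 20.0, 21.4 and 19.9 CPM with DMSO and at 21.5, 21.8 and 21.2 CPM with GSK-A1. The lowest GSK-A1 library lay below the highest DMSO library, and the log2 fold change was 0.07 ± 0.05 (edgeR adjusted p = 0.368). It passed the threshold only with the GC trend of each library removed, where the log2 fold change was 0.16 ± 0.06 (edgeR adjusted p = 0.0435). That fit called 26.1% of all genes tested and 5 of the 8 pathway genes. Antisense genes cover part of ETNK2, the longest being ERLNC1 over 11.9% of its exonic length.

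Of the cytidylyl transferases, PCYT2 was called and PCYT1A was not. PCYT2 (ENSG00000185813) encodes CTP:phosphoethanolamine cytidylyl transferase, which makes CDP-ethanolamine, and lies on the minus strand at chr17:81900965-81911464. PCYT2 mRNA was at 28.5, 27.3 and 29.2 CPM with DMSO and at 22.4, 19.7 and 23.1 CPM with GSK-A1. All 3 treated libraries were below all 3 controls, and GSK-A1 replicate 2 was the lowest. PCYT2 changed by -0.38 ± 0.06 in log2 (edgeR adjusted p = 0.000416), and 91.7% of all genes tested had a higher log2 fold change. PCYT2 had the smallest p-value of the 8 genes. Its log2 fold change lay between -0.42 and -0.28 under the 15 alternatives, with an adjusted p of at most 0.00670. The gene NPB lies on the opposite strand and covers 28.1% of the exonic length of PCYT2. Whether reads were assigned by strand is not given in the sources used here. NPB was at 2.30 ± 0.24 CPM with DMSO and 1.77 ± 0.15 CPM with GSK-A1, against 28.3 ± 0.9 and 21.7 ± 1.8 CPM for PCYT2, with a fitted log2 change of -0.36 ± 0.14 (edgeR adjusted p = 0.0790).

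PCYT1A (ENSG00000161217) encodes CTP:phosphocholine cytidylyl transferase alpha, an enzyme that binds to membranes poor in phosphatidylcholine and is switched on there. It lies on the minus strand at chr3:196214222-196287957. Its 3 DMSO libraries were at 39.5, 37.7 and 39.8 CPM and its 3 GSK-A1 libraries at 40.1, 39.4 and 41.1 CPM. The groups overlapped, and the log2 fold change of 0.04 ± 0.05 was smaller than its standard error (edgeR adjusted p = 0.524). Across the 15 alternatives it lay between 0.00 and 0.06, with no call. PCYT1B (ENSG00000102230), the beta isoform known mainly from brain and gonads, had 3, 2 and 0 counts in the DMSO libraries and 3, 1 and 4 in the GSK-A1 libraries. With 13 counts in all it was not tested. The 0 in DMSO replicate 3 allows a level of up to 0.0905 CPM, a limit of 3 counts that covers counting error only.

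Within each library the count of PCYT2 was set against that of PCYT1A, a ratio that no scaling of the libraries can move. A GC trend that differs between libraries, as described below, can move it: PCYT2 is at 64.6% GC and PCYT1A at 46.9%. No paralog ratio was computed with that trend removed. The log2 ratio was -0.47, -0.46 and -0.45 in the DMSO libraries and -0.84, -0.999 and -0.83 in the GSK-A1 libraries. The DMSO libraries lay almost together and every GSK-A1 library was lower. In counts, PCYT2 stood at 0.726 of PCYT1A with DMSO and at 0.540 with GSK-A1, a log2 difference of -0.43 between the group means. An exact two-sided permutation test of 3 libraries against 3 cannot go below 0.1, and it gave p = 0.1, which was 0.1 after adjustment over the 4 ratios computed.

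The ratios of the other 3 paralog pairs are given as values. The log2 ratio of CHKA to CHKB was 3.11 ± 0.04 with DMSO and 3.53 ± 0.40 with GSK-A1, a difference of 0.42. GSK-A1 replicate 2 stood alone at 3.99 there, and without it the difference was 0.19. The log2 ratio of ETNK1 to ETNK2 was 1.75 ± 0.10 and 1.95 ± 0.08, a difference of 0.20. For CEPT1 over CHPT1 the values were -0.59 ± 0.05 and -0.43 ± 0.06, a difference of 0.16. Each of the 3 differences had an exact two-sided permutation p of 0.1, the smallest that 3 libraries against 3 can give, and an adjusted p of 0.1. None of the 4 ratios therefore passed a threshold of 0.05, and each of the 4 pairs holds 1 gene that was called by itself.

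The terminal transferases join the activated head group to diacylglycerol. CEPT1 (ENSG00000134255), on the plus strand at chr1:111139627-111185102, encodes an enzyme that accepts both CDP-choline and CDP-ethanolamine. CEPT1 mRNA was at 46.8, 50.9 and 50.1 CPM with DMSO and at 58.1, 61.1 and 57.0 CPM with GSK-A1. The groups were well apart: the lowest treated library was above the highest control. CEPT1 rose by 0.25 ± 0.05 in log2 (edgeR adjusted p = 0.00116) and ranged from 0.18 to 0.28 over the 15 alternatives, each of which kept the call.

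CHPT1 (ENSG00000111666), on the plus strand at chr12:101696947-101744140, encodes the Golgi cholinephosphotransferase, which uses CDP-choline only. Its level was 73.3, 75.2 and 73.7 CPM with DMSO and 74.9, 85.1 and 76.8 CPM with GSK-A1. GSK-A1 replicate 2 was high, and the lowest treated library lay below the highest control. The fitted log2 value of CHPT1 was 0.09 ± 0.05 (edgeR adjusted p = 0.181). It dropped to 0.04 when GSK-A1 replicate 2 was left out and to 0.01 when the GC trend was removed.

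SELENOI (ENSG00000138018), on the plus strand at chr2:26308547-26395891, encodes the ethanolaminephosphotransferase of the pathway, a selenoprotein that uses CDP-ethanolamine, the product of PCYT2. SELENOI mRNA was at 75.9, 76.7 and 78.8 CPM with DMSO and at 92.2, 99.1 and 87.9 CPM with GSK-A1. All treated libraries were above all controls, with GSK-A1 replicate 2 highest. SELENOI rose by 0.27 ± 0.05 in log2 (edgeR adjusted p = 0.000547), or 20.7%, and kept its call under all 15 alternatives. In the ethanolamine branch, therefore, the kinase ETNK1 and the transferases SELENOI and CEPT1 were called higher, ETNK2 was not called, and PCYT2 between them was called lower.

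Promoter sequence upstream of PCYT2 and SELENOI is shown because these neighbouring steps of the ethanolamine branch moved in opposite directions. The RefSeq promoter table (GRCh38.p14) reaches from 250 bases before each transcription start to 50 after it and held 12 windows for 9 of the 10 pathway genes. Only bases outside GENCODE 29 exons are printed, 5′ to 3′ on the strand of the gene. The PCYT2 stretch, chr17:81911465-81911649 on the minus strand, covers 66 to 250 bases before the start at 81911399. RefSeq holds another PCYT2 start at 81911175, and both lie inside the GENCODE 29 span of PCYT2. The SELENOI stretch, chr2:26345893-26346085 on the plus strand, covers 58 to 250 bases before its start, which also lies inside the GENCODE 29 span of the gene. Capitals mark matches, on either strand, to the EGR motif GCGNGGGCG and to CCAAT, which reads ATTGG on the other strand.
PCYT2: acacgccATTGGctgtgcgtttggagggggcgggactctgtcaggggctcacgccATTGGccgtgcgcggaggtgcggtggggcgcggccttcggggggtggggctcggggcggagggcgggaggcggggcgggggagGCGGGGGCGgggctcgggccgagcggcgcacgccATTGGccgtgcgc
SELENOI: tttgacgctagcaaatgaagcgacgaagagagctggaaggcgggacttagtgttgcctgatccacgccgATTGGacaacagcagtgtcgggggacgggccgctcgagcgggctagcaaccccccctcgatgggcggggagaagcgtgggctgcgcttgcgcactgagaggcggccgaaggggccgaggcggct

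The PCYT2 stretch is 78.9% G and C and holds 1 EGR match, 3 CCAAT matches and 5 matches to the GC box GGGCGG, of which 1 overlaps the EGR match. The SELENOI stretch is 65.8% G and C and holds 0 EGR matches, 1 CCAAT match and 1 GC box match. Over the full windows, EGR matches were found in both windows of PCYT2 and in that of ETNK2, 3 of 12, against 9.43% of all 35116 windows in the table. The motif is nearly all G and C, and these 3 windows are 79.7% to 83.7% G and C, against a median of 58.7% over all windows, so the shares do not compare like with like. CCAAT was found in 4 of the 12 windows, those of CHKB, PCYT1B, SELENOI and 1 of PCYT2, against 34.6% of all windows. The GC box was found in 8 of 12, against 45.0%. It is all G and C, and these 8 windows are 63.3% to 83.7% G and C, so this share too does not compare like with like. Neither the sterol element TCACNCCAC (1.13% of all windows) nor the AP-1 motif TGANTCA (7.71%) was found in any of the 12, with both strands searched. A match describes letters and does not show that a factor binds. EGR1, a zinc finger factor that binds the EGR motif, was at 11.2 ± 1.0 CPM with DMSO and 52.1 ± 2.9 CPM with GSK-A1, higher by 2.22 ± 0.06 in log2 (edgeR adjusted p = 4.77e-13). PCYT2, with the motif, was called lower, and ETNK2, with the motif, was called higher only with the GC trend removed. Whether EGR1 acts on either gene was not tested.

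Levels can be compared between genes only per length, here in CPM per kilobase of exonic sequence in GENCODE 29. In the DMSO libraries CHPT1 was highest at 12.3 ± 0.2, followed by SELENOI at 9.02 ± 0.18, ETNK1 at 8.39 ± 0.34 and CEPT1 at 5.86 ± 0.26. The libraries of these 4 genes did not overlap from 1 gene to the next in the order. PCYT1A at 4.89 ± 0.15, CHKA at 4.85 ± 0.31 and ETNK2 at 4.57 ± 0.19 did overlap and cannot be ordered. PCYT2 followed at 4.10 ± 0.14, below every library of those 3, and CHKB was last of the 8 at 0.724 ± 0.063. The place of CHKB is uncertain, because 72.5% of its exonic length is shared with CHKB-CPT1B and the division of reads is not known. In the GSK-A1 libraries PCYT2 was at 3.15 ± 0.26, CHKA at 5.71 ± 0.21, PCYT1A at 5.04 ± 0.11 and ETNK2 at 4.81 ± 0.07. CHKA, PCYT1A and ETNK2 no longer overlapped there. Annotated length includes isoforms that these cells may not use, so an order of genes rests on that length.

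Base composition moved with the result. The log2 fold change of all genes tested went down with the GC content of the gene's longest transcript. Genes were ranked by GC content into 10 equal groups. In the group with the lowest GC content (23.5% to 38.5%) the median was 0.08, with 24.0% called higher and 3.60% called lower. In the group with the highest GC content (61.5% to 76.8%) the median was -0.09, with 4.29% called higher and 19.1% called lower. ETNK1 (34.6% GC), CEPT1 (34.9%), CHPT1 (34.4%) and SELENOI (38.4%) are in the lowest group, and PCYT2 (64.6%) is in the highest. CHKA, at 51.5% GC, is in the group whose median was -0.04. GC content was known for 96.1% of all genes tested and for all 8 pathway genes.

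**Figure D2:**
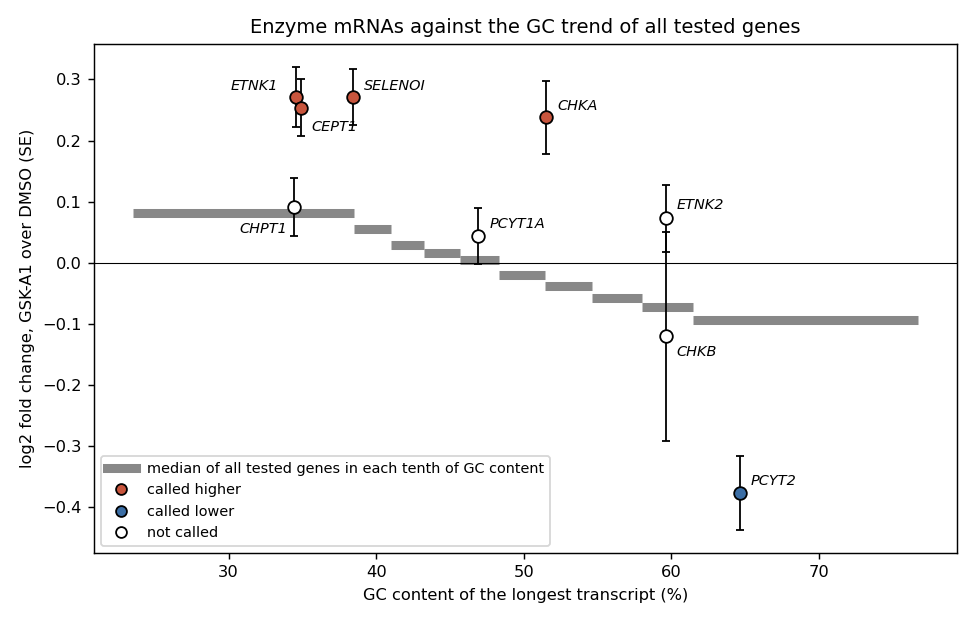
Log2 fold change with GSK-A1 (vertical axis, with SE) against GC content of the longest transcript (horizontal axis, percent) for the 8 Kennedy pathway genes and SELENOI; grey bars give the median of all tested genes in 10 equal groups by GC content. ETNK1, CEPT1, SELENOI and CHKA lie above the grey bars, as do ETNK2, PCYT1A and, narrowly, CHPT1, which were not called. PCYT2 lies below the bar of its group, which is at -0.09, and CHKB, not called, lies below its bar.

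The GC trend was strongest in GSK-A1 replicate 2. Set against the mean of all libraries, its genes deviated by a median of 0.13 on the log2 scale in the group of lowest GC content and of -0.12 in the highest. The corresponding pairs were 0.01 and -0.02 in GSK-A1 replicate 1 and -0.01 and 0.02 in GSK-A1 replicate 3. In the DMSO libraries the lowest group deviated by -0.05 to -0.03 and the highest by 0.03 to 0.07.

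With the GC trend of each library removed, the log2 fold change was -0.28 ± 0.05 for PCYT2, 0.20 ± 0.04 for ETNK1, 0.18 ± 0.04 for CEPT1, 0.23 ± 0.04 for SELENOI and 0.28 ± 0.05 for CHKA. All 5 kept their calls, PCYT2, ETNK1, CEPT1 and SELENOI with smaller values and CHKA with a larger one. Without GSK-A1 replicate 2, the values were -0.31 ± 0.05 for PCYT2, 0.22 ± 0.04 for ETNK1, 0.23 ± 0.04 for CEPT1, 0.23 ± 0.03 for SELENOI and 0.27 ± 0.06 for CHKA. The same 4 of the 8 genes and SELENOI were called, in a fit that called 28.1% of its genes.

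**Figure D3:**
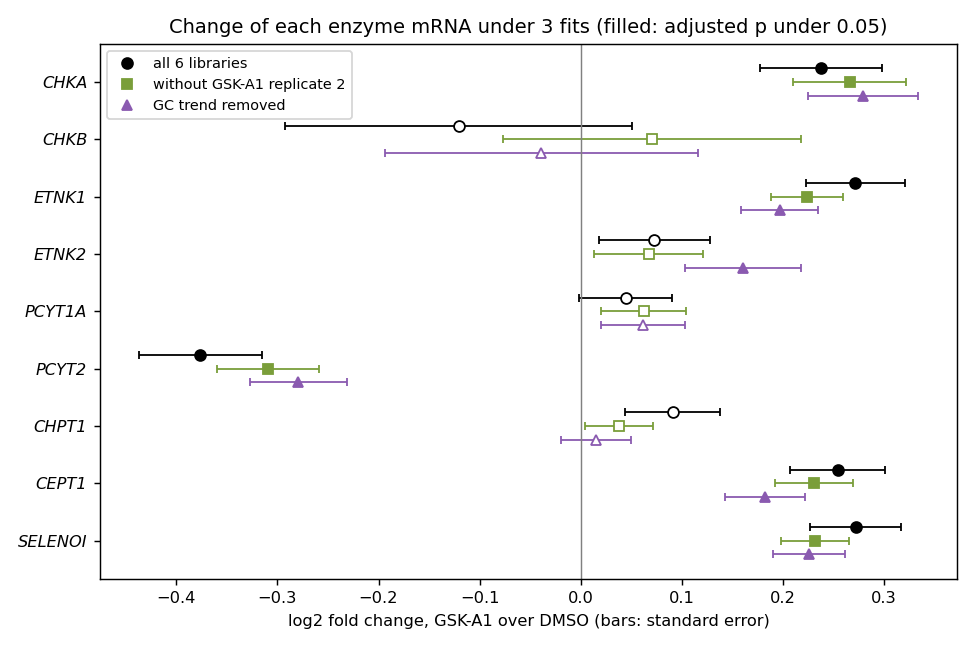
Log2 fold change with GSK-A1 and its SE (horizontal axis) of the 8 Kennedy pathway genes and SELENOI under 3 fits: all 6 libraries (circles), the 5 libraries other than GSK-A1 replicate 2 (squares) and all libraries after removal of the GC trend (triangles); filled symbols have an adjusted p under 0.05. PCYT2 runs from -0.38 to -0.28 and stays filled, while ETNK2 is filled only with the GC trend removed.

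The genes around the pathway were examined in 7 further lists. Counts below are of genes called with all 6 libraries, beside 12.0% of all genes tested called higher and 10.9% called lower. In the alternative fits the number called in the whole table, 3835 with all libraries, moved too. It was 2163, 2213 and 2206 without DMSO replicates 1, 2 and 3. Without GSK-A1 replicates 1, 2 and 3 it was 2674, 4890 and 3805. Upper-quartile factors gave 1339 higher and 2688 lower, and removal of the GC trend gave 2797 higher and 1579 lower.

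Other routes to the same lipids gave no call. The list held PISD, the mitochondrial phosphatidylserine decarboxylase, PEMT, which methylates phosphatidylethanolamine to phosphatidylcholine, and the phosphatidylserine synthases PTDSS1 and PTDSS2. The 4 genes had a median log2 fold change of 0.03. PISD came nearest, at 0.12 ± 0.05 (edgeR adjusted p = 0.0714), and PEMT was at 31.7 ± 0.7 CPM with DMSO and 31.6 ± 1.3 CPM with GSK-A1. After removal of the GC trend 2 of the 4 were called higher, and leaving out GSK-A1 replicate 2 gave 1 call.

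Among genes of choline and ethanolamine transport and choline oxidation, 0 of 10 tested were called higher and 3 were called lower. The median log2 fold change of the list was -0.19. CHDH, the mitochondrial choline dehydrogenase that starts the oxidation of choline to betaine, fell from 15.6 ± 1.0 to 12.0 ± 0.6 CPM (-0.38 ± 0.07 in log2, edgeR adjusted p = 0.00112). ALDH7A1, which oxidises betaine aldehyde among other aldehydes, fell from 197 ± 0 to 171 ± 4 CPM (-0.20 ± 0.04 in log2, edgeR adjusted p = 0.000809). The SD of 0 is rounded to whole CPM. The third called gene was SLC44A5, a member of the choline transporter-like family, at a log2 fold change of -0.19. The number called lower was 2 without GSK-A1 replicate 1 and 5 with upper-quartile factors. SLC5A7, CHAT and BHMT had too few counts to be tested.

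Genes that supply or use diacylglycerol moved both ways, with 2 of 13 called higher, 3 called lower and a median of -0.03. GPAT3, a glycerol-3-phosphate acyltransferase of the endoplasmic reticulum, rose from 21.5 ± 0.6 to 26.8 ± 2.0 CPM (0.32 ± 0.06 in log2, edgeR adjusted p = 0.00131). AGPAT1, which adds the second acyl chain to make phosphatidic acid, fell from 130 ± 2 to 114 ± 2 CPM (-0.20 ± 0.04 in log2, edgeR adjusted p = 0.00142). AGPAT4 was also called higher, and DGAT2 and AGPAT3 were also called lower. Leaving out GSK-A1 replicate 2 or 3 raised the number called to 7 in each case. Leaving out DMSO replicate 1 or 3 or GSK-A1 replicate 1 lowered it to 4 in each case.

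Of 8 genes of CTP supply, 1 was called higher and 2 were called lower, with a median of -0.12. DHODH, which carries out the mitochondrial step of pyrimidine synthesis, fell from 11.1 ± 1.1 to 8.83 ± 0.68 CPM (-0.32 ± 0.08 in log2, edgeR adjusted p = 0.0118). Without DMSO replicate 2 its log2 fold change was -0.24 and its edgeR adjusted p was 0.0909. NME1, a nucleoside diphosphate kinase, fell from 71.0 ± 1.7 to 60.7 ± 3.2 CPM (-0.22 ± 0.05 in log2, edgeR adjusted p = 0.00235). CMPK1, the UMP/CMP kinase, was the gene called higher, at a log2 fold change of 0.25. That call was lost when any 1 of the DMSO libraries was left out. It was also lost with upper-quartile factors, without library factors and without the filter on low counts. The count of the list moved with the fit: leaving out DMSO replicate 2 gave 1 call, leaving out GSK-A1 replicate 2 gave 5, and upper-quartile factors gave 5, all lower. The whole table had 2213, 4890 and 4027 calls in these fits, and 2688 of the last were lower.

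Of 7 acyltransferases that remodel phospholipids, 2 were called higher and 0 lower, with a median of 0.12. LPGAT1, a lysophospholipid acyltransferase, rose with a fitted log2 change of 0.19 ± 0.04 (edgeR adjusted p = 0.00398). MBOAT2, which acylates lysophosphatidylethanolamine, was at 85.5 ± 4.3 CPM with DMSO and 96.0 ± 6.4 CPM with GSK-A1 (0.17 ± 0.05 in log2, edgeR adjusted p = 0.0260). MBOAT2 was not called without DMSO replicate 1 (0.13, edgeR adjusted p = 0.158), without DMSO replicate 2 (0.18, edgeR adjusted p = 0.0681) or with upper-quartile factors (0.13, edgeR adjusted p = 0.0747). The list then held 1, 1 and 2 called genes, the last with 1 of them lower.

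Of 17 genes that break down phosphatidylcholine or phosphatidylethanolamine, 2 were called higher and 2 lower, with a median of -0.01. GPCPD1, which releases choline from glycerophosphocholine, fell from 18.0 ± 0.9 to 14.3 ± 1.0 CPM (-0.33 ± 0.07 in log2, edgeR adjusted p = 0.00199). GDPD1, a lysophospholipase D, rose with a fitted log2 change of 0.22 ± 0.05 (edgeR adjusted p = 0.00858). PLA2G12A was also called higher and ABHD4 was also called lower. Leaving out GSK-A1 replicate 2 or 3 gave 7 or 6 calls, and removing the GC trend gave 7. Leaving out DMSO replicate 1 or 2 gave 3 calls in each case.

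Sphingomyelin synthases take the head group of phosphatidylcholine and pass it to ceramide. In the list of phosphatidylcholine transfer and sphingomyelin synthesis, 3 of 6 genes were called higher and 0 lower, with a median of 0.10. SGMS2, the synthase of the plasma membrane and Golgi, rose from 36.0 ± 1.4 to 48.1 ± 3.2 CPM (0.42 ± 0.05 in log2, edgeR adjusted p = 5.25e-05). SAMD8, a related enzyme that makes ceramide phosphoethanolamine, rose from 59.4 ± 2.1 to 75.9 ± 3.3 CPM (0.35 ± 0.05 in log2, edgeR adjusted p = 5.81e-05). SGMS1, the Golgi synthase, was the other called gene, at a log2 fold change of 0.17. The number called was 2 without DMSO replicate 1, 2 or 3 or GSK-A1 replicate 1, and 2 with upper-quartile factors.

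**Figure D4:**
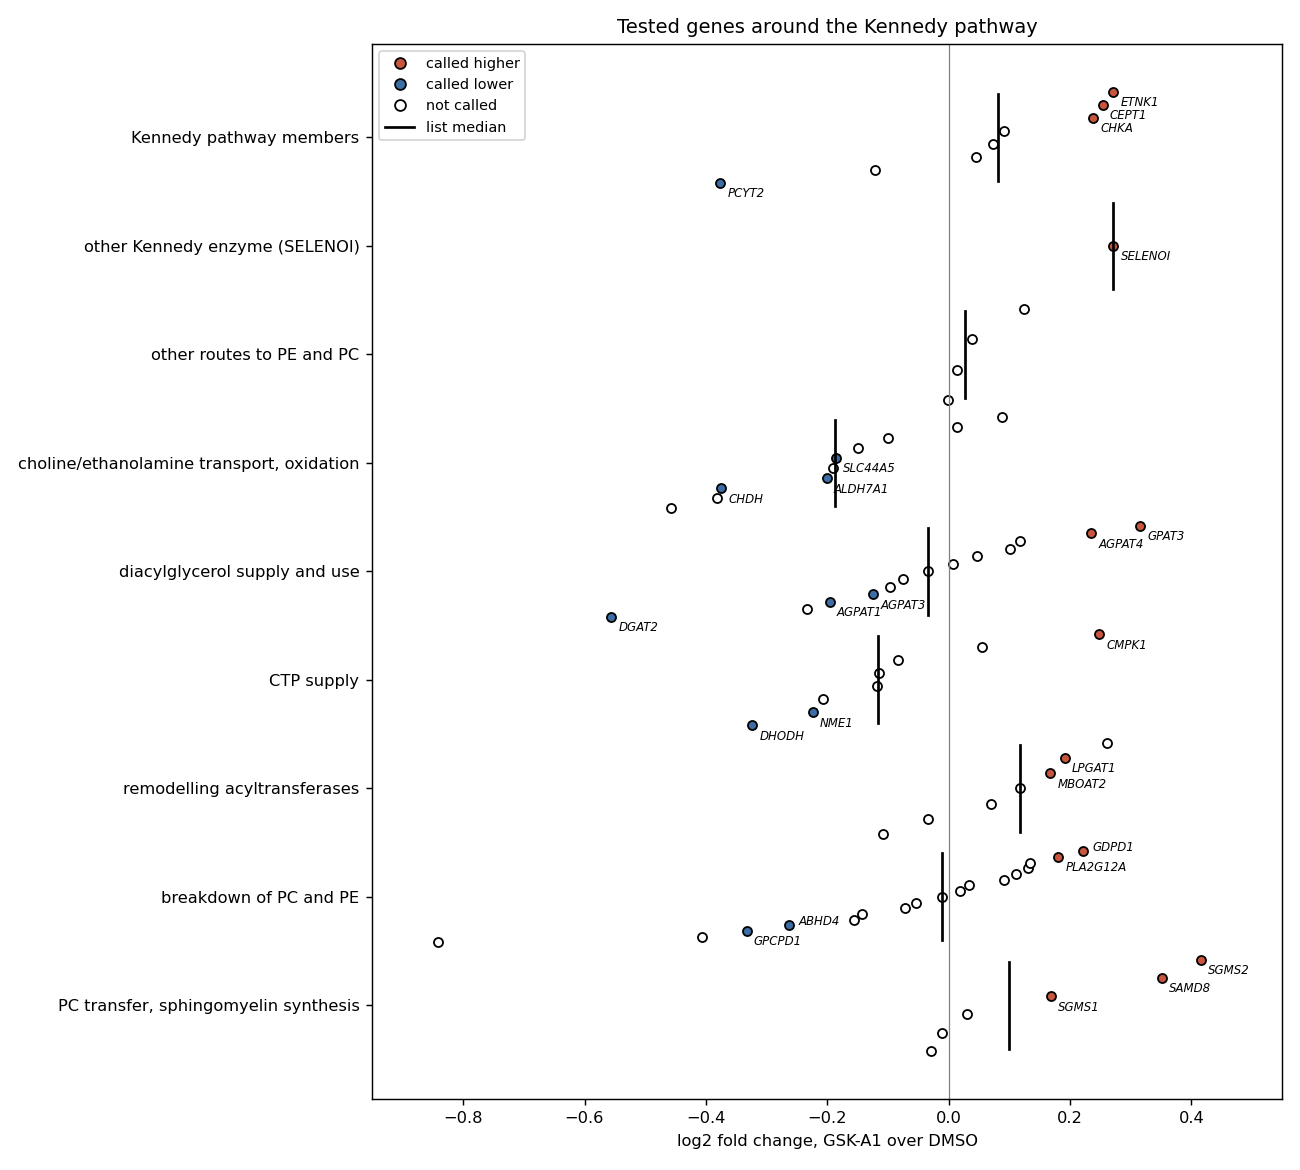
Log2 fold change with GSK-A1 (horizontal axis) of each tested gene in the 9 rows of Kennedy pathway genes and lists around them; red is called higher, blue called lower, white not called, and the black line is the median of the row. The row of choline and ethanolamine transport and oxidation has its median at -0.19, and the 3 called sphingomyelin genes lie between 0.17 and 0.42.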

How the data were processed

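Per the submitters' processing notes, reads were handled with cutadapt 5.1, STAR 2.7.11b, featureCounts (Subread 2.1.1) and DESeq2 1.38.0 on GRCh38.p13. The deposited table holds raw counts per gene, as whole numbers. The strand setting, annotation release and filters are not given in the sources used here. Depth was 33040178 to 47777233 counts per library. All 6 columns were used.

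Genes were kept by filterByExpr (smallest count 10, smallest total 15), scaled by trimmed-mean (TMM) factors and tested with edgeR 4.0.16 in R 4.3.3 (quasi-likelihood F test, robust) over the 6 libraries. P-values were adjusted by Benjamini-Hochberg over 16754 genes and called under 0.05. The SE is the unshrunken log2 coefficient over the square root of F. CPM uses TMM-scaled totals. The common biological coefficient of variation was 4.06%. The fit was tested on simulated data with 200 changed genes. It recovered 82% of log2 changes of 0.5 and 54% of those of 0.25, and 6.2% of its calls were false. In the 6 libraries 22.9% of all genes tested were called. Whether the rates found with 200 changed genes hold there was not tested. Alternatives were RLE, upper-quartile or no library factors, 2 filters on low counts, a replicate block, DESeq2 1.42.0, limma-voom (limma 3.58.1), a loess GC offset (span 0.3) and leaving out each library. Gene spans, exonic length, GC content and overlaps come from GENCODE 29, and promoters from RefSeq.

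The pathway genes and lists were chosen with earlier results of these data known. The rule named every pathway gene, from each other list the called genes with the lowest p-values, at most 2, then 5 genes most like the pathway gene of lowest p-value, and EGR1 beside its motif. CHKB-CPT1B and NPB, which overlap pathway genes, and the other genes named from the lists were chosen after their values were seen.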

Additional observations from a re-analysis of the deposited data

How the results depend on the processing

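Over all 15 alternatives PCYT2, ETNK1, CEPT1 and SELENOI kept their direction and their call. The number of genes called in the whole table, 3835 with all libraries, ranged from 2163 to 4890 when 1 library was left out (2163, 2213 and 2206 without DMSO replicates 1, 2 and 3). The number of the 8 pathway genes called ranged from 3 to 4 when 1 library was left out and was 5 with the GC trend removed. The log2 fold change of CHKB, called in no fit, ranged from -0.25 to 0.071 when 1 library was left out, and 0.071, without GSK-A1 replicate 2, reverses the direction found with all libraries. The 4 paralog ratios kept their direction with a prior count of 10 and without any 1 library. Without 1 library they ranged from -0.46 to -0.37 for PCYT2/PCYT1A, 0.19 to 0.55 for CHKA/CHKB, 0.14 to 0.24 for ETNK1/ETNK2 and 0.13 to 0.19 for CEPT1/CHPT1. The ratios were not computed with the GC trend removed. In that fit the log2 fold change was 0.20 for ETNK1 and 0.16 for ETNK2, which lie close together. It was -0.28 for PCYT2 and 0.06 for PCYT1A, and 0.28 for CHKA and -0.04 for CHKB. For CEPT1 and CHPT1 it was 0.18 and 0.01. Of all called genes 52.3% were higher, against 33.3% with upper-quartile factors and 63.9% with the GC trend removed. Same-numbered libraries deviated together with correlations across genes of 0.01, 0.02 and 0.03, all under 0.1, so the numbers were not taken to pair the libraries. As a hint from the data, 5 of 6 libraries correlated best with their own number; GSK-A1 replicate 1 did not. A replicate block gave 4127 called genes and 4 called pathway genes, and same-numbered differences of the ratios had SDs of 0.09, 0.36, 0.18 and 0.10 in the order above around means of -0.43, 0.42, 0.20 and 0.16, which equal the unpaired differences by arithmetic. Precision limits what could be seen: the standard error was 0.05 for PCYT1A, ETNK2 and CHPT1 and 0.17 for CHKB, which had few counts. The cause of the reversal of CHKB was not tested.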

Other observations

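PHOSPHO1 and ETNPPL act on phosphocholine or phosphoethanolamine outside the pathway. PHOSPHO1, a phosphatase of both compounds, was at 0.554 ± 0.043 CPM with DMSO and 0.321 ± 0.111 CPM with GSK-A1, which is -0.84 ± 0.30 in log2 (edgeR adjusted p = 0.0512). ETNPPL, which breaks down phosphoethanolamine, was at 1.17 ± 0.19 and 1.05 ± 0.16 CPM, which is -0.15 ± 0.19 in log2 (edgeR adjusted p = 0.612). Neither was called, and both genes were picked out after their values were seen.

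The 5 genes whose log2 CPM most resembled that of PCYT2 over the 6 libraries, among 12815 candidates, were ADAMTS7, CFAP410, TRERF1, NISCH and BRF1, with Pearson's r from 0.995 to 0.998 given as a description. Their log2 fold changes were -0.64, -0.37, -0.52, -0.33 and -0.23. In each of the 5, as in PCYT2, GSK-A1 replicate 2 was the lowest library and all 3 GSK-A1 libraries were below all 3 DMSO libraries. Both features follow from the choice of genes by likeness over the same libraries.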
